A study of Mus musculus with 16 samples.

Results

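Hmga2, Ivl, Psca, Bex3, Adra1b, S100a4 and Wnt9a are 7 genes of 55416 in the deposited table of mouse primary hepatocytes. They were chosen by the size of their change in TPM (a transcript level corrected for transcript length and library size) with palmitic acid, a saturated fatty acid, and because they lie outside the known lipid pathways. All 7 were matched by mouse Ensembl identifier, and all 7 were among the 11858 genes tested. Since the palmitic acid response chose the genes, that response is described here without a test. The rule of choice names no genotype, so the comparison between genotypes was tested, with limits that are stated beside its results.

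Cells were primary hepatocytes of mice carrying the Smpd3 deletion system of cre and loxP. Smpd3 encodes a neutral sphingomyelinase, an enzyme that splits sphingomyelin into ceramide and phosphocholine. FLOX cells were Alb-cre- and HKO cells Alb-cre+, so that Cre, driven by the albumin promoter, acted in hepatocytes of the HKO mice only. Both genotypes were cultured for 24 h with vehicle or with 0.4 mM palmitic acid, giving 4 groups, with 4 samples in each and 16 in all. The study used the fatty acid as a culture model of metabolic steatohepatitis. The labels do not say whether the samples of a group came from separate animals or cultures, and the p-values rest on sample-to-sample spread that could be technical. The titles repeat the same sample numbers in both treatments of a genotype and do not say what a number marks. The labels give no age for the mice.

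The libraries carried the genotype their labels give: Smpd3 lay between 27.8 and 47.8 TPM in the 8 FLOX samples and between 4.25 and 9.15 TPM in the 8 HKO samples. Each library had between 11231 and 11498 genes at 1 TPM or more, and the read depth behind these values is unknown. Albumin averaged 22092 ± 285 TPM (SD, n = 4) in FLOX vehicle cells and 18768 ± 777 with palmitic acid. The 12 hepatocyte markers summed to 59332 to 60063 TPM in FLOX vehicle, 46510 to 48054 in FLOX palmitic acid, 63353 to 64577 in HKO vehicle and 49077 to 50498 in HKO palmitic acid. Markers of mesothelium (8 genes) and of lymphocytes and neutrophils (13 genes) were all under 1 TPM in every sample. In the first replicates of FLOX vehicle and FLOX palmitic acid, the scores on the third principal component, which held 7.53% of the variance, were -16.09 and 18.99, the lowest and highest of all 16. In a pool of cells, fewer cells of a type and less RNA per cell cannot be told apart.

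The 7 genes have separate known roles. Hmga2 and Wnt9a act in growth and patterning: Hmga2 is an architectural chromatin protein of embryonic tissue that binds AT-rich DNA, and Wnt9a is a secreted Wnt ligand. Ivl encodes involucrin, a precursor of the cornified envelope of squamous epithelium. Psca is a glycolipid-anchored surface protein of the Ly6/uPAR family. Bex3 is an adaptor protein that binds the p75 neurotrophin receptor. Adra1b is an adrenergic receptor that couples through Gq to calcium release, and in liver it drives glycogen breakdown. S100a4 is a calcium-binding protein tied to cell movement and mesenchymal cells.

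Hmga2, Ivl and Wnt9a were higher with palmitic acid, and the other 4 were lower. Over both genotypes, Hmga2 had the 4th largest rise among the tested genes, Ivl the 12th and Wnt9a the 267th. Among falls, Bex3 ranked 2nd, Psca 3rd, Adra1b 5th and S100a4 11th. Wnt9a thus goes against the description of the genes as the strongest responders. Palmitic acid and vehicle samples did not overlap for any of the 7 in either genotype, but this same response chose the genes. The share of all tested genes without such overlap was not counted. Over all tested genes, the limma fit called 23.0% higher and 11.5% lower in FLOX, and 29.4% higher and 13.1% lower in HKO. These were 2726 and 1358 genes in FLOX and 3491 and 1549 in HKO. With median-ratio scaling the counts were 1647 and 1984 in FLOX and 2103 and 2369 in HKO. Quantile scaling gave 1908 and 1877 in FLOX and 2400 and 2228 in HKO, so the excess of rises depended on the scaling. The counts of list genes below are without such scaling. Responses are log2(TPM + 1) differences, a scale that understates the change of genes near 1 TPM. Their median over all tested genes was 0.10 in FLOX and 0.11 in HKO.

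**Figure D1:**
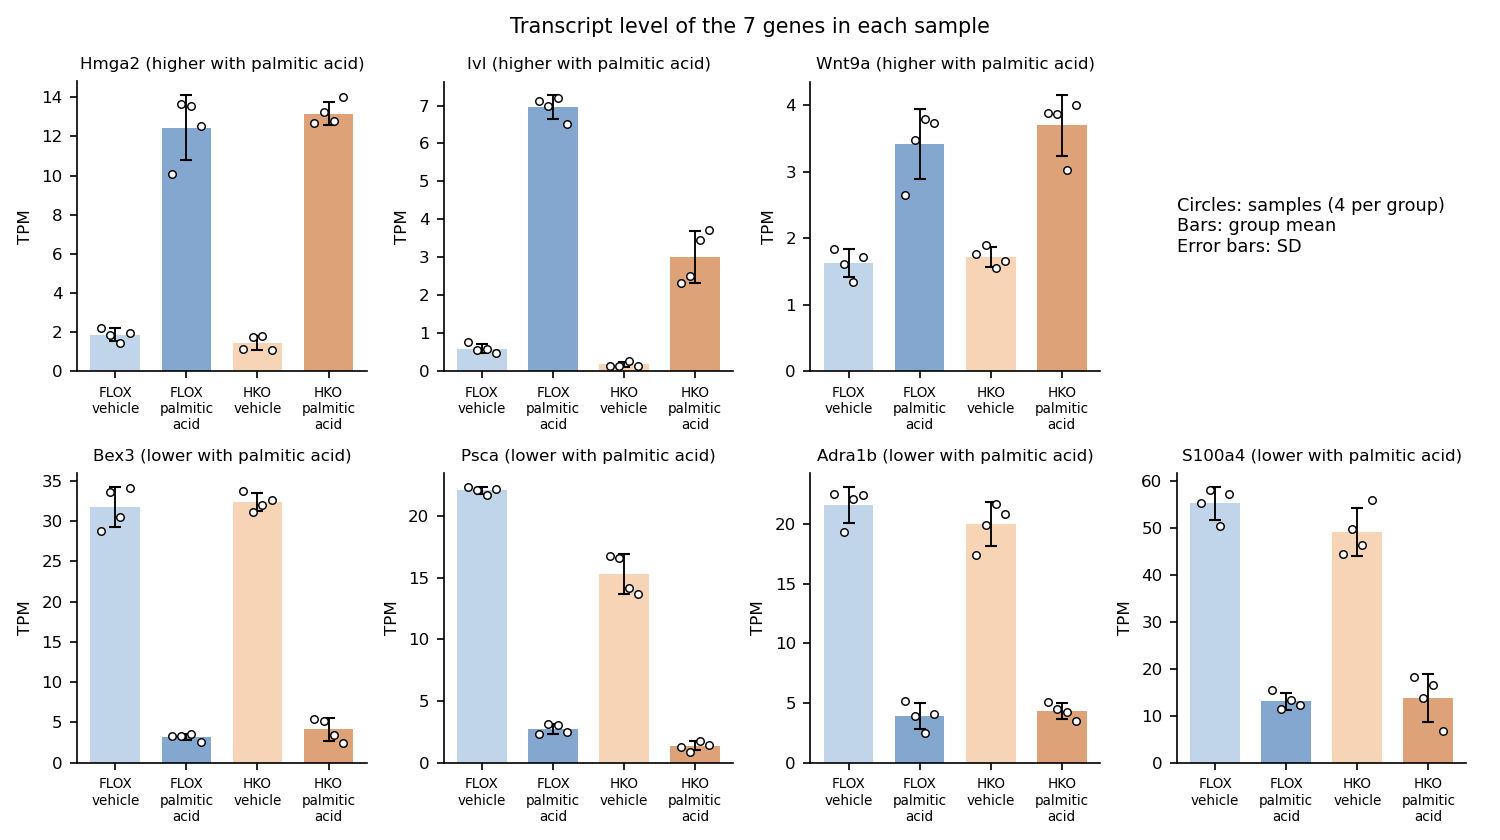
Transcript level in TPM (linear axis from 0) of each gene in the 16 samples; circles are samples, bars group means and error bars SD with n = 4. Hmga2, Ivl and Wnt9a sit higher and Bex3, Psca, Adra1b and S100a4 lower with palmitic acid, and the FLOX and HKO bars stand apart for Ivl and Psca.

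Hmga2 (ENSMUSG00000056758, chromosome 10) stood at 2.23, 1.84, 1.45 and 1.96 TPM in FLOX vehicle cells and at 10.1, 13.6, 13.6 and 12.5 TPM with palmitic acid. In HKO cells it stood at 1.16, 1.73, 1.81 and 1.08 TPM with vehicle and at 12.7, 13.2, 12.8 and 13.99 TPM with palmitic acid. The lowest palmitic acid sample was therefore several times above the highest vehicle sample, and the genotypes overlapped in both treatments. The group means were 6.66-fold apart in FLOX and 9.11-fold apart in HKO, which is 2.23 ± 0.12 and 2.55 ± 0.12 (SE) as a log2(TPM + 1) difference. In FLOX vehicle cells 13.4% of tested genes had a lower mean TPM than Hmga2, and in FLOX palmitic acid cells 50.6% had.

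Hmga2 is known as a target of the let-7 microRNA family, which is scarce in embryonic tissue and represses Hmga2 in adult tissue through sites in its 3′ UTR. Its longest coding transcript (GENCODE M21, GRCm38) has 3017 bases of 3′ UTR, and the sites it holds are shown because no other member has as many. The let-7a-5p sequence (RefSeq) and the transcript sites are written 5′ to 3′, with the seed of the microRNA (bases 2 to 8) and the letters that match it, CTACCTC, in capitals.
let-7a-5p: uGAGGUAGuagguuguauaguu
Hmga2 site 1: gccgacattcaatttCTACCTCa
Hmga2 site 2: ccccactcctcaataCTACCTCt
Hmga2 site 3: ctgatttgcaaggaaCTACCTCc
Hmga2 site 4: aatcaaaacacactaCTACCTCt
Wnt9a site: cagcctgtgatttctCTACCTCa
The Hmga2 3′ UTR held 4 matches and that of Wnt9a 1, and the other 5 members held none. Of 10818 tested genes with a coding transcript, 9.79% held at least 1 match, and 5, Hmga2 included, held as many as Hmga2 or more. A match describes letters only, and microRNAs were not measured.

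Of the 19 other genes of the list on HMGA and fetal tissue, 7 were tested. With palmitic acid 5 of the 7 rose and 1 fell in FLOX, and 5 rose and 2 fell in HKO, with a median log2 difference of 0.41 and 0.52. Hmga1, the paralog of Hmga2, rose from 511 to 1116 TPM in FLOX (log2 difference 1.13 ± 0.040 SE, limma adjusted p = 2.69e-11) and from 422 to 1116 TPM in HKO (1.40 ± 0.040, adjusted p = 1.52e-12). Hmga1 has near-identical copies in the genome, so that its level depends on how reads were shared out. Igf2bp2, an RNA-binding protein and a target of Hmga2, rose from 1.71 to 4.72 TPM in FLOX and from 2.56 to 5.03 TPM in HKO. Sox9 and Sox4, transcription factors of progenitor cells, rose in both genotypes, by log2 differences of 0.41 and 0.35 in FLOX. Zeb1, a repressor of epithelial genes, rose by a log2 difference of 0.79 in FLOX and 0.33 in HKO, and Snai2, another such repressor, fell by 0.47 and 0.31 (named after its values were seen, to complete the list). Afp, the fetal albumin-like protein, was at 12.1 and 10.8 TPM in FLOX (adjusted p = 0.225) and fell from 12.8 to 10.3 TPM in HKO.

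Ivl (ENSMUSG00000049128, chromosome 3) stood at 0.77, 0.56, 0.59 and 0.47 TPM in FLOX vehicle cells and at 7.12, 7.0, 7.21 and 6.52 TPM with palmitic acid. The HKO samples were at 0.15, 0.15, 0.27 and 0.15 TPM with vehicle and at 2.32, 2.52, 3.45 and 3.73 TPM with palmitic acid. The HKO samples were below all FLOX samples in each treatment. The group means differed 11.7-fold in FLOX and 16.7-fold in HKO, against log2(TPM + 1) differences of 2.32 ± 0.11 and 1.75 ± 0.11 (SE). No vehicle sample reached 1 TPM, so Ivl entered the test only through the palmitic acid groups and its response there had to differ.

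Ivl and S100a4 lie on the same chromosome, 3, and moved in opposite directions. Of the 27 protein-coding genes annotated between them, 24 were matched and 2 were tested: S100a6, an S100 protein, and Sprr1a, a small proline-rich cornified envelope precursor. Another 14 were listed at 0 in every sample. S100a6 fell with palmitic acid from 997 to 526 TPM in FLOX, and Sprr1a did not pass the test, with 1430 and 1160 TPM.

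The promoters of Ivl and S100a4 (RefSeq GRCm38.p6, 250 bases before the start) and of Bex3 are shown because Ivl and S100a4 share a chromosome and moved in opposite directions and because Bex3 had the largest fall of the 7 genes on the log2(TPM + 1) scale averaged over both genotypes (in HKO alone the Psca difference was larger). Capitals mark matches to TATAAA, to the AP-1 motif TGANTCA, to AGGTCA, the element that nuclear receptors bind, to CCAAT in either direction, to TGACG, the core of the cyclic AMP response element, and to the GC box GGGCGG.
Ivl, chr3:92573736-92573985, minus strand: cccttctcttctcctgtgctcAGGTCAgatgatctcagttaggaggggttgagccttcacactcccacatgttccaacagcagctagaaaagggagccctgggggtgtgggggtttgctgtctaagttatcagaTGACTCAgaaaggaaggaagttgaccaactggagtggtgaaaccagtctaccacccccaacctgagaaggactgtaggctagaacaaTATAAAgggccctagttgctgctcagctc
S100a4, chr3:90603520-90603769, plus strand: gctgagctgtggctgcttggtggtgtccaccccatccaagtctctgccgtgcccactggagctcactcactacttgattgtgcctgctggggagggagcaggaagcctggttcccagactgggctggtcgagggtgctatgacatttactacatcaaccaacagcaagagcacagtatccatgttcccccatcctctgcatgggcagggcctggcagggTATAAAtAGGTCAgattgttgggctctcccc
Bex3, chrX:136270003-136270252, plus strand: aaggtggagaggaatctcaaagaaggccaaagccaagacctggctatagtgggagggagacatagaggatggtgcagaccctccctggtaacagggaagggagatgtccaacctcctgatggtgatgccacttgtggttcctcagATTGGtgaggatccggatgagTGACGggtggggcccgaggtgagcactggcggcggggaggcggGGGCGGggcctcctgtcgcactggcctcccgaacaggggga
Ivl held TATAAA 29 bases, TGACTCA 116 bases and AGGTCA 229 bases before the start. S100a4 held TATAAA 31 bases and AGGTCA 24 bases before it. Bex3 held ATTGG at 105, TGACG at 84 and GGGCGG at 41 bases. Both strands were searched in all 32851 promoters of this length, where 12.4% held TATAAA, 6.75% the AP-1 motif, 14% AGGTCA, 33.8% CCAAT, 17.8% TGACG and 32.7% the GC box GGGCGG. Also searched were CACGTG (in 6.02% of all promoters), the TEAD motif GGAATG (12.6%), the direct repeat of AGGTCA spaced by 1 base, which overlaps AGGTCA (0.0335%), and the NF-kB motif (0.14%). Of the 7 promoters that 6 of the members have in this table, 2 held TATAAA and 2 AGGTCA. These are matches of letters, not sites.

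In the cornified envelope list 5 of the 26 other genes were tested, 9 were listed at 0 in every sample, and none of the 5 rose with palmitic acid. In FLOX 2 fell and in HKO 1, with a median log2 difference of -0.52 and -0.20. Ppl, which encodes periplakin, fell from 26.6 to 13.8 TPM in FLOX and from 23.8 to 12 TPM in HKO (log2 difference -0.89 ± 0.087 and -0.93 ± 0.087 SE, limma adjusted p = 1.25e-06 and 5.5e-07). Tgm1, the transglutaminase that cross-links involucrin, fell by 0.52 on the log2 scale in FLOX, and in HKO it stood at 10.8 and 9.25 TPM (adjusted p = 0.138). Cdsn and Krt10 did not pass in either genotype. Without the first FLOX replicates of both treatments 3 genes fell in FLOX instead of 2. Of 9 squamous epithelium markers, 7 were under 1 TPM in every sample and Krt14, Trp63, Krt1 and Krt13 were at 0. Krt5, a basal keratin, rose with palmitic acid from 1.37 to 3.72 TPM in FLOX and from 0.987 to 2.45 TPM in HKO. Krt5 was lower in HKO, by a log2 difference of -0.36 over both treatments (limma adjusted p = 0.00967) and -0.46 under palmitic acid (0.0314). Under vehicle Krt5 did not pass, at -0.26 (limma adjusted p = 0.227). Krt10, the other squamous marker tested, did not pass over both treatments, at 0.11 (limma adjusted p = 0.676). The summed squamous markers were 1.89 to 2.66 TPM in FLOX vehicle, 4.21 to 5.32 in FLOX palmitic acid, 1.95 to 2.75 in HKO vehicle and 2.53 to 5.24 in HKO palmitic acid. The part of such cells in the Ivl values was not tested.

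Wnt9a (ENSMUSG00000000126, chromosome 11) stood at 1.83, 1.61, 1.34 and 1.72 TPM in FLOX vehicle cells and at 2.65, 3.47, 3.79 and 3.73 TPM with palmitic acid. In HKO cells its level was 1.76, 1.89, 1.55 and 1.65 TPM with vehicle and at 3.88, 3.87, 3.02 and 4.0 TPM with palmitic acid. The treatments were closest here of all 7 genes, and the genotypes overlapped throughout. The group means differed 2.10-fold in FLOX and 2.16-fold in HKO.

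Of the 18 other Wnt ligands, 1 was tested: Wnt5b, at 0.985 and 1.37 TPM in FLOX (limma adjusted p = 0.0825). Among the 16 tested genes of Wnt secretion and reception, 4 rose and 1 fell in FLOX, and 3 rose and 2 fell in HKO. Without the first FLOX replicates of both treatments, 8 rose and 1 fell in FLOX. Porcn, the acyltransferase that attaches the lipid a Wnt protein needs for secretion, fell from 4.53 to 2.53 TPM in FLOX and from 3.83 to 1.82 TPM in HKO (adjusted p = 0.00039 and 6.23e-05). The receptor Fzd6 rose from 3.10 to 5.09 TPM in FLOX, and the signal transducer Dvl1 rose from 45.9 to 58.1 TPM. Of 15 tested targets and partners of beta-catenin, 5 rose and 3 fell in FLOX and 6 rose and 2 fell in HKO. Without the same 2 replicates, 9 rose and 3 fell in FLOX. Glul, the glutamine synthetase of hepatocytes around the central vein, rose from 23.9 to 48.9 TPM in FLOX and from 19 to 47.3 TPM in HKO. Myc, a growth regulator, rose from 78.4 to 106 TPM in FLOX, and Ccnd1, a cyclin of cell cycle entry, fell from 4.04 to 1.67 TPM. Between genotypes 1 of the 15 was higher and 7 were lower in HKO, among them Cyp2e1 at a log2 difference of -1.21 and Lect2 at -1.09. The shares over all tested genes were 7.51% higher and 12.7% lower. Of 10 endothelial markers, Stab1 and Egfl7 the highest, 5 were under 1 TPM in every sample. The list summed to 9.79 to 16.5 TPM in FLOX vehicle, 10.5 to 11.7 in FLOX palmitic acid, 12.4 to 13.8 in HKO vehicle and 11.5 to 15.3 in HKO palmitic acid. The median responses in FLOX were 0.16 for secretion and reception and 0.24 for the targets.

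Bex3 (ENSMUSG00000046432, chromosome X) stood at 28.8, 33.6, 30.6 and 34.1 TPM in FLOX vehicle cells and at 3.37, 3.27, 3.55 and 2.58 TPM with palmitic acid. Among HKO samples it was at 33.8, 31.1, 32.0 and 32.6 TPM with vehicle and at 5.46, 5.14, 3.47 and 2.47 TPM with palmitic acid. The vehicle levels were alike in both genotypes, and the palmitic acid samples were a small part of them. The palmitic acid mean was 10.1% of the vehicle mean in FLOX and 12.8% in HKO, a 9.94-fold and a 7.83-fold difference.

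Of the 13 other genes counted with the Bex and Tceal adaptors and p75 receptor signalling, 4 were tested. In each genotype 3 of these 4 fell, and the median log2 difference was -0.41 in FLOX and -0.36 in HKO. Tceal9, Tceal8 and Tceal5 are relatives of the Bex proteins. Tceal9 fell from 80.3 to 54.0 TPM, Tceal8 from 40.4 to 33.4 TPM and Tceal5 from 1.74 to 0.415 TPM in FLOX (limma adjusted p = 2.34e-07, 0.000351 and 0.00258). The paralog Bex2 stood at 2.23 and 3.32 TPM (adjusted p = 0.071). Bex2, Tceal8 and Tceal9 were higher in HKO over both treatments, by log2 differences of 0.57, 0.18 and 0.19, whereas Bex3 did not pass. Of all tested genes 7.51% were higher in HKO.

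Psca (ENSMUSG00000022598, chromosome 15) stood at 22.4, 22.1, 21.7 and 22.2 TPM in FLOX vehicle cells and at 2.33, 3.13, 3.03 and 2.47 TPM with palmitic acid. The HKO cells held 16.8, 16.6, 14.2 and 13.7 TPM with vehicle and at 1.31, 0.90, 1.77 and 1.47 TPM with palmitic acid. All HKO samples were below all FLOX samples of the same treatment. The mean was 8.06-fold lower with palmitic acid in FLOX and 11.2-fold lower in HKO, with log2(TPM + 1) differences of -2.63 ± 0.11 and -2.79 ± 0.11 (SE). The spread between FLOX vehicle samples was small, with an SD of 0.29 TPM around a mean of 22.1 TPM.

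In the Ly6/uPAR family 9 of the 32 other genes were tested. Ly6d, a surface marker of epithelial and B lineage cells, rose from 79.3 to 109 TPM in FLOX and from 65.4 to 104 TPM in HKO (limma adjusted p = 0.00525 and 0.00027). Ly6e, an interferon-responsive surface protein, fell from 781 to 591 TPM in FLOX and from 938 to 714 TPM in HKO (adjusted p = 2.32e-06 and 1.94e-06). In all 1 of the 9 rose and 2 fell in FLOX, and 1 rose and 3 fell in HKO, with a median log2 difference of 0.01 and -0.13. Cd59a, an inhibitor of the complement pore, was among those that fell. Plaur, the urokinase receptor, stood at 99.1 and 103 TPM in FLOX (adjusted p = 0.313). Between genotypes 4 of the 9 were higher in HKO and none lower, while Psca was lower. Over all tested genes 7.51% were higher and 12.7% lower in HKO, a split that depended on the scaling. Of 10 cholangiocyte markers 6 were tested; they summed to 382 to 397 TPM in FLOX vehicle, 465 to 504 in FLOX palmitic acid, 497 to 525 in HKO vehicle and 630 to 679 in HKO palmitic acid, with Spp1 and Cldn4 the highest. With palmitic acid 3 of the 6 rose and 3 fell in FLOX, and 3 rose and 2 fell in HKO. Between genotypes 3 of the 6 were higher in HKO over both treatments and 1, Krt7, was lower. Spp1 was higher by a log2 difference of 0.905 (limma adjusted p = 1.76e-09) and Cldn4 by 0.073 (adjusted p = 0.0479). Krt7, a duct keratin named after its values were seen, fell from 2.31 to 0.277 TPM in FLOX and from 1.17 to 0.095 TPM in HKO. Krt7 was lower in HKO, by a log2 difference of -0.41 over both treatments (limma adjusted p = 0.000849) and -0.61 under vehicle (0.00112). Under palmitic acid, where its means were under 1 TPM, Krt7 did not pass, at -0.22 (limma adjusted p = 0.233), whereas Psca did. Krt19, another duct keratin named likewise, fell from 8.64 to 5.03 TPM in FLOX and from 11.9 to 5.4 TPM in HKO, and over both treatments it was higher in HKO, by 0.26 (adjusted p = 0.0484). The part of such cells in the Psca values was not tested.

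Adra1b (ENSMUSG00000050541, chromosome 11) stood at 22.5, 19.3, 22.1 and 22.4 TPM in FLOX vehicle cells and at 5.14, 3.94, 2.46 and 4.09 TPM with palmitic acid. The level in HKO cells was 17.4, 19.96, 21.7 and 20.9 TPM with vehicle and at 5.05, 4.5, 4.23 and 3.48 TPM with palmitic acid. Genotypes overlapped in both treatments. The mean was 5.53-fold lower with palmitic acid in FLOX and 4.63-fold lower in HKO.

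Of 32 other genes counted in adrenergic and calcium-mobilising signalling, 20 were tested, and 4 rose and 5 fell in FLOX while 5 rose and 7 fell in HKO. The median log2 difference was -0.03 in FLOX and -0.04 in HKO. Without the first FLOX replicates of both treatments, 6 rose and 3 fell in FLOX. Plcb1, a phospholipase downstream of Gq, fell from 1.46 to 0.770 TPM in FLOX (limma adjusted p = 0.00152). The arrestin Arrb1 fell from 2.97 to 1.57 TPM in FLOX. The kinase Grk2, which switches receptors off, rose from 23.8 to 30.1 TPM in FLOX and from 21.4 to 29.7 TPM in HKO. Gcgr, the glucagon receptor, fell from 29.3 to 25.2 TPM in FLOX and from 31.3 to 24.7 TPM in HKO. Phka2, a subunit of the kinase that activates glycogen phosphorylase, fell from 16.5 to 12.5 TPM in FLOX and from 14.5 to 9.65 TPM in HKO. Pygl, the liver glycogen phosphorylase, stood at 84.9 and 77.3 TPM in FLOX (adjusted p = 0.0758) and fell from 101 to 83.9 TPM in HKO. Gna11, a G protein that couples to Adra1b, did not pass in either genotype, at 28.7 and 30.0 TPM in FLOX. Avpr1a, the vasopressin receptor that also signals through Gq, was lower in HKO over both treatments, by a log2 difference of -0.90 ± 0.066 (SE, adjusted p = 7.66e-08).

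S100a4 (ENSMUSG00000001020, chromosome 3) stood at 55.3, 58.2, 50.4 and 57.3 TPM in FLOX vehicle cells and at 15.4, 11.3, 13.3 and 12.2 TPM with palmitic acid. HKO cells showed 44.6, 49.7, 46.4 and 56.1 TPM with vehicle and at 18.3, 13.7, 16.5 and 6.73 TPM with palmitic acid. It was the most abundant of the 7 genes in vehicle cells. The mean was 4.23-fold lower with palmitic acid in FLOX and 3.57-fold lower in HKO.

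In the S100 list 10 of the 19 other genes were tested, and 2 rose and 5 fell in FLOX while 2 rose and 6 fell in HKO. The median log2 difference was -0.08 in FLOX and -0.24 in HKO. S100a6 fell from 997 to 526 TPM in FLOX and S100a3 from 22 to 9.36 TPM (log2 difference -0.93 ± 0.091 and -1.20 ± 0.17 SE, limma adjusted p = 1.21e-06 and 4.66e-05). S100g, an intestinal-type calcium-binding protein, fell from 2.45 to 0.365 TPM and was higher in HKO over both treatments, by a log2 difference of 0.85 ± 0.20 (SE, adjusted p = 0.00728). S100a16 rose from 200 to 247 TPM, as did Anxa2, the annexin partner of S100a10, from 1289 to 1677 TPM. S100a10 fell from 2573 to 2262 TPM, and S100a11, at 2404 and 2460 TPM, did not pass (adjusted p = 0.575).

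S100a4 also marks fibroblasts and other mesenchymal cells. In the stellate and fibroblast list of 12 genes, 9 were under 1 TPM in every sample, and 2 were tested. Tagln, an actin-binding protein, fell from 56.5 ± 3.9 to 2.48 ± 0.58 TPM (SD, n = 4) in FLOX and from 96.8 ± 6.7 to 6.5 ± 1.9 TPM in HKO. Lox, a collagen cross-linking enzyme, rose from 49.8 to 78.2 TPM in FLOX and from 43.5 to 56.6 TPM in HKO. The summed list was 101 to 114 TPM in FLOX vehicle, 58.9 to 101 in FLOX palmitic acid, 134 to 151 in HKO vehicle and 61.5 to 66.4 in HKO palmitic acid. Macrophage markers summed to 49.3 to 55.7, 56.9 to 69.6, 61.1 to 71.0 and 81.7 to 108 TPM in the same order, with 10 of 12 under 1 TPM and almost all of the sum from Cd68. The part of these cells in the S100a4 values was not tested.

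**Figure D2:**
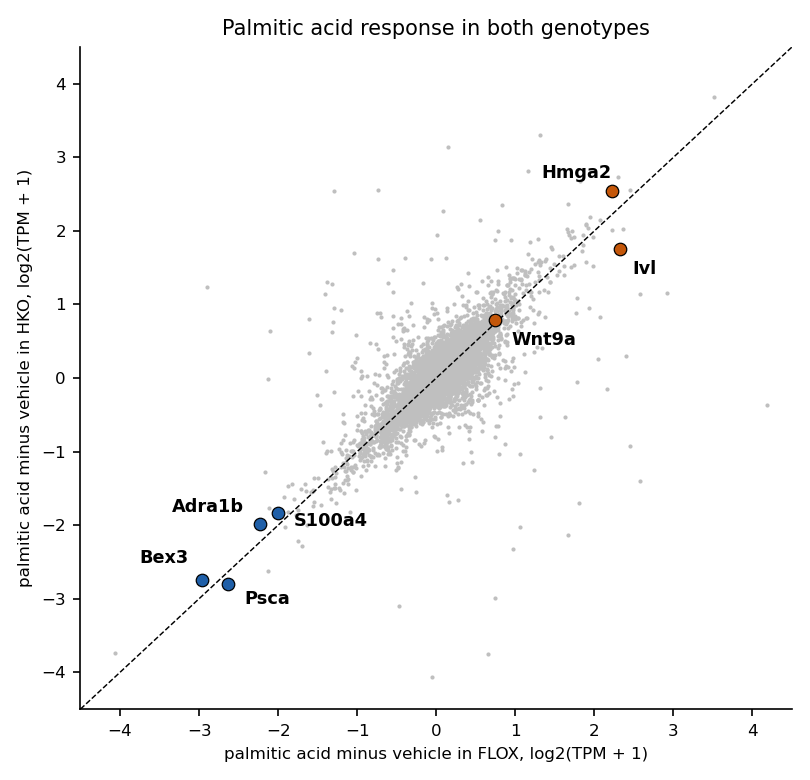
Palmitic acid minus vehicle on the log2(TPM + 1) scale in FLOX (x) and HKO (y) for all 11858 tested genes (grey) and the 7 genes (colour, labelled); the dashed line marks equal responses. Hmga2 lies at 2.23 and 2.55, Ivl at 2.32 and 1.75 and Wnt9a at 0.74 and 0.79, while the 4 genes that were lower lie at the lower left.

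Genotype differences were tested with limma on log2(TPM + 1), adjusted over all tested genes. The mean over both treatments is uncorrelated with the palmitic acid response. Each genotype comparison within a treatment is uncorrelated with the mean response over both genotypes, and so is the difference in response between genotypes. These comparisons share samples with the response in 1 genotype and are not independent of it. If that response chose a gene, they are not free of the choice. The rule names no genotype. Ivl and Psca were lower in HKO and the other 5 genes did not pass. Ivl was lower by a log2 difference of -0.72 ± 0.080 (SE, adjusted p = 8.67e-06) and Psca by -0.59 ± 0.077 (adjusted p = 4.66e-05), with the HKO samples below the FLOX samples in both treatments. The share of all tested genes with such separation of the genotypes was not counted. Over all tested genes 20.2% passed, 7.51% higher and 12.7% lower in HKO, which were 891 and 1505 genes. With median-ratio scaling 1144 were higher and 1088 lower, and with quantile scaling 1197 and 1232. Ivl and Psca were lower and passed under both.

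Under vehicle 2 of the 7 passed, Ivl at -0.44 ± 0.11 (SE, limma adjusted p = 0.0205) and Psca at -0.51 ± 0.11 (adjusted p = 0.00605), where 11.7% of tested genes passed. No vehicle sample of Ivl reached 1 TPM, the level of the filter, and read depth is unknown. Ivl entered the test only through the palmitic acid groups. Without FLOX vehicle replicate 1 Ivl stood at -0.38 with adjusted p = 0.0559, without HKO vehicle replicate 2 at -0.42 with 0.0504, and without both FLOX samples numbered 1 at -0.38 with 0.0541. Over all alternatives its adjusted p ran from 0.000394 to 0.0595. Under palmitic acid 2 passed, Ivl at -1.01 ± 0.11 (adjusted p = 1.75e-05) and Psca at -0.67 ± 0.11 (adjusted p = 0.000699), where 9.74% of tested genes passed. Ivl in HKO was at 30.1% of its FLOX mean TPM under vehicle and at 43.2% under palmitic acid, and Psca at 69.3% and 49.7%. Without HKO palmitic acid replicate 4, Bex3 was also called under palmitic acid, at 0.43 with adjusted p = 0.0326, in a range of 0.0326 to 0.706 over all alternatives.

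For the other 5 genes, the 95% confidence interval of the mean genotype difference ran from -0.26 to 0.10 for Hmga2, from -0.08 to 0.37 for Bex3 and from -0.20 to 0.22 for Adra1b. It ran from -0.39 to 0.22 for S100a4, the widest of the 7, and from -0.09 to 0.23 for Wnt9a.

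**Figure D3:**
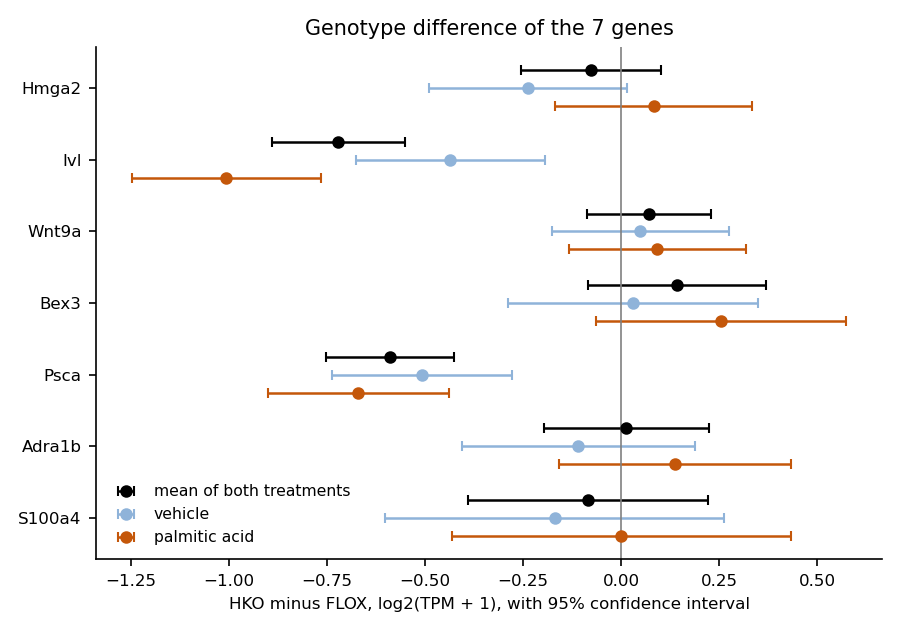
HKO minus FLOX on the log2(TPM + 1) scale for the 7 genes, over both treatments and in each treatment; points are limma estimates and lines 95% confidence intervals. The intervals of Ivl and Psca lie wholly below 0 and those of the other 5 genes cross it.

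The difference in palmitic acid response between genotypes passed for none of the 7 in limma, with 1 gene, Ivl, at an unadjusted p under 0.05. Over all tested genes 0.194% passed. The Ivl response was smaller in HKO by -0.57 ± 0.16 (SE, adjusted p = 0.282). With a pseudocount of 0.1 the same difference was 0.11, and by ratio of means HKO had the larger response. On the linear scale the mean Ivl level gained 6.37 TPM in FLOX, against 2.82 TPM in HKO.

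In HKO palmitic acid replicate 4, 6 genes (all but Psca) lay furthest of the 4 samples from the vehicle mean, and in replicate 1 of that group 5 lay nearest to it. In FLOX palmitic acid replicate 1, Hmga2, Adra1b, S100a4 and Wnt9a lay nearest to the vehicle mean. This count was made after the values were seen, and the same count over all tested genes was not made.

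The genes most like each of the 7 in log2(TPM + 1) were taken as the 3 with the highest Pearson r over the 16 samples. These r describe mainly the 4 group levels, since all points share the treatment and genotype of their groups, and no test is given. Hmga2 was nearest to Plin2 (r = 0.9929), the coat protein of lipid droplets, which was at 477 TPM in FLOX vehicle and 2626 TPM with palmitic acid, and then to Arf4 and Atxn10. Ivl was nearest to Sult1e1 (r = 0.9911), the estrogen sulfotransferase, at 5.29 and 20.7 TPM in FLOX and 4.96 and 11.7 TPM in HKO, and then to Fth1 and Zpr1. Psca was nearest to Cyp2c70 (r = 0.9951), which makes muricholic acids, at 911 and 430 TPM in FLOX, and then to Slc25a48 and Slc37a4. Bex3 was nearest to F3 (r = 0.9905), tissue factor, at 92.3 and 39.5 TPM, and then to Psat1 and Csf1. Adra1b was nearest to Cyp2b10 (r = 0.9936), at 69.2 and 29.2 TPM, and then to Mbl2 and Psat1. S100a4 was nearest to Gjb2 (r = 0.9886), a gap junction protein, at 92.2 and 51.3 TPM, and then to Gm2a and Cyb5r3. Wnt9a was nearest to 6430548M08Rik (r = 0.9806), at 1.05 and 2.84 TPM, and then to Tnip1 and Dgkd.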

How the data were processed

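RNA-seq of 16 samples of mouse primary hepatocytes was deposited as TPM per gene, with no counts, so depth is unknown. Per the labels' protocols, libraries were made from total RNA with a stranded kit. The deposited TPM values were made by the authors with RSEM 1.3.3, per the submitters' processing notes. Those notes also name GRCh38.p13, a human build, whereas the identifiers are mouse Ensembl genes. What aligner, mouse annotation release and strand setting were used is not given in the sources used here. Each sample's column summed to 975816 to 984870 TPM. Symbols matched 52083 of 55416 identifiers (94.0%).

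Genes with at least 1 TPM in 4 or more of 16 samples were fitted as log2(TPM + 1) with limma 3.58.1 (R 4.3.3), 1 mean per group, a mean-variance trend and Benjamini-Hochberg adjustment over 11858 genes; the threshold was an adjusted p of 0.05. The code was tested on simulated data. The 7 members and all gene lists were chosen with earlier results of these data known. In 2 of the lists (Bex and Tceal, adrenergic) 1 gene each is not reported here and was left out of the counts and medians after the values were seen. Named genes are the members, the 3 most correlated genes of each, per list up to 6 relatives by mean TPM or any past the threshold with a log2 change of 0.5, and the 2 highest markers per list.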

Additional observations from a re-analysis of the deposited data

Results flagged for a closer look

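In 28 groups of 4 samples (7 genes in 4 groups), 3 held a sample whose gap to its nearest neighbour, as a share of the group's range, was above Dixon's 95% critical value for 4 samples. Chance flags about 1 in 20 groups of normally distributed values without ties. Ivl in HKO vehicle cells had its highest sample at 0.27 TPM, with all others at 0.15 TPM. With such a tie, in values given to 2 decimals, any other value gives a share of 1.000, so this flag follows from the tie. Adra1b in FLOX vehicle cells had its lowest sample at 19.32 TPM, with the others between 22.14 and 22.52 TPM. Wnt9a in HKO palmitic acid cells had its lowest sample at 3.02 TPM, with the others between 3.87 and 4.0 TPM.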

How the results depend on the processing

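The calls of Ivl and Psca over both treatments and under palmitic acid held in every alternative run. Under vehicle 1 member instead of 2 was called with a filter of 5 TPM (Ivl adjusted p = 0.0595, limma) and without both FLOX samples numbered 1 (0.0541); leaving out 1 replicate gave 1 to 2 members under vehicle and 2 to 3 under palmitic acid. Among differences that did not pass, the sign turned for S100a4 under palmitic acid (-0.0070) and the Ivl interaction (0.11) with a pseudocount of 0.1, for Bex3 under vehicle (-0.0107) and the Wnt9a interaction (-0.0342) with sample weights, and without both FLOX samples numbered 1 for Bex3 under vehicle (-0.0147), Hmga2 under palmitic acid (-0.0070) and the Wnt9a interaction (-0.0824). Leaving out 1 replicate gave -0.0654 to 0.0725 (Adra1b) and -0.1614 to 0.0582 (S100a4) over both treatments, -0.0147 to 0.0639 (Bex3) and -0.0048 to 0.0867 (Wnt9a) under vehicle, -0.0070 to 0.1258 (Hmga2), -0.0218 to 0.2540 (Adra1b) and -0.1538 to 0.2854 (S100a4) under palmitic acid, and -0.0450 to 0.1158 for the Wnt9a interaction; the cause was not tested. Genes called for the interaction numbered 23, against 9 with median-ratio scaling, 5 without the trend, 40 with sample weights and 8 to 24 with 1 replicate left out; under palmitic acid 1155 genes were called, and 669 with only the groups compared. Same-numbered vehicle and palmitic acid samples correlated between -0.150 and 0.086 in their deviations and matched their own number best in 2 of 8 cases. The labels do not say whether a shared number marks 1 animal or culture, and weak correlation cannot settle it. With a replicate block of the 4 numbers the interaction called 8 genes, and the 4 comparisons called 2, 2, 2 and 0 members. With 8 blocks, 1 per number and genotype, the interaction called 3 genes and 0 members. Counts of list genes without both FLOX samples numbered 1 were added after seeing the data. Wnt9a was not tested with the 5 TPM filter.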
